A study of Mus musculus with 4 samples.

Results

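The dermal matrix genes described here were 10 of the 24441 genes in the table, picked by gene name: the small leucine-rich proteoglycans Dcn, Bgn, Aspn, Lum, Fmod, Prelp and Ogn, the elastic fibre genes Eln and Fbn1, and fibronectin, Fn1. In skin of bleomycin-treated mice, fibronectin was the member whose level lay below both WT libraries in both GSDMD KO libraries, at 91.5 and 84.9 FPKM in WT skin and 20.6 and 1.09 FPKM in KO. The values of the other 9 members overlapped between genotypes. In 8 of them KO replicate 1 had the highest value of the 4 libraries or stood beside the WT libraries while KO replicate 2 had the lowest, and asporin, Aspn, was not low in either KO library.

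The dermis is a mesh of collagen fibrils, elastic fibres and the proteoglycans and glycoproteins between them, laid down mainly by fibroblasts. Small leucine-rich proteoglycans are secreted proteins with a curved leucine-rich core that bind collagen fibrils and set their thickness and spacing, and several of them carry glycosaminoglycan chains. Elastic fibres consist of an elastin core on a scaffold of fibrillin microfibrils, and fibronectin is a glycoprotein that cells assemble into fibrils through integrins and that accumulates early in wounds and fibrosis.

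The study asked how loss of gasdermin D, a pore-forming protein that executes pyroptosis, changes skin fibrosis, and RNA of lesional back skin was sequenced from WT mice and from GSDMD KO mice. All were labelled as female C57BL/6 mice of 8 weeks, and every one had received bleomycin (BLM), a cytotoxic antibiotic used to induce fibrosis, under the skin for 28 days. The KO line had been bought as a Cas9-edited C57BL/6 line. Each genotype had 2 libraries, numbered replicate 1 and 2, and skin without BLM was not analysed here. The labels do not say what separates replicates, so p-values measure the spread between these samples, which may be technical. Levels are given as FPKM, fragments scaled to transcript length and library depth, which can be compared between genes because length is divided out.

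The libraries summed to 448544 to 462251 FPKM, and from the step that 1 fragment makes in low genes their depth was estimated at 12700000 to 17400000 fragments. At that depth 3 fragments on a transcript of 1 kb, taken as the floor, come to 0.172 to 0.235 FPKM. Gsdmd, the targeted gene, had 14.0 and 18.2 FPKM in WT skin and 3.53 and 2.26 FPKM in KO, so the labels and this gene go together. KO replicate 2 stood apart: on the axis of largest variance, with 74.1% of the total, its score was 75.4 against 6.2 for KO replicate 1 and -27.7 and -53.9 for the WT libraries. It also held values above 0 for 4 of 15 Y-linked genes, 1.78 FPKM in all, which were at 0 in the other libraries. These values go against the female label of that library. Fold changes of the members are therefore given with and without it.

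Cell type markers also differed between the libraries. The summed level of 8 fibroblast markers was 154 and 127 FPKM in WT, 253 FPKM in KO replicate 1 and 39.6 FPKM in KO replicate 2, with 8 of 8 markers above the WT mean in KO replicate 1 and 8 of 8 below it in KO replicate 2. The defining markers Pdgfra and Dpt were present in every library, at 1.79, 1.06, 3.61 and 0.323 FPKM and at 54.3, 50.6, 89.4 and 6.58 FPKM. The sum of 6 endothelial markers was 67.6 and 98.1 FPKM in WT against 93.0 and 7.88 FPKM in KO. The sum of 7 macrophage markers was 1881 and 1812 FPKM in WT against 749 and 80.5 FPKM in KO. No marker of these lists was at 0 in any library. In bulk skin, fewer cells of a type and less RNA per cell cannot be told apart, and the part of cell composition in the results that follow was not tested.

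Markers of other skin compartments are given for the same libraries. Keratinocyte markers, 6 genes, summed to 3498 and 2746 FPKM in WT skin and to 7805 and 5029 FPKM in KO. Hair follicle markers, 6 genes, summed to 7.80 and 0.671 FPKM in WT skin and to 299 FPKM in KO replicate 1, but only to 7.73 FPKM in KO replicate 2. In KO replicate 2 the keratinocyte sum was thus above both WT libraries while the fibroblast sum was below both. The basal keratins Krt5 and Krt14 carried that sum, at 1664 and 2735 FPKM, whereas the suprabasal keratins Krt1 and Krt10 were lowest in KO replicate 2, at 280 and 266 FPKM against 668 and 745 FPKM in WT replicate 1 and 381 and 364 FPKM in WT replicate 2. Adipocyte markers summed to 1768 and 4837 FPKM in WT skin and 2236 and 242 FPKM in KO, and mural cell markers to 1300 and 1363 FPKM against 1054 and 674 FPKM. Skeletal muscle markers, 5 genes, were high throughout and summed to 19954 and 18908 FPKM in WT skin and 12235 and 12493 FPKM in KO, so the groups did not overlap and KO was the lower, as for Fn1. Their part in the level of Fn1 was not tested. Tendon and cartilage markers, 5 genes of which only Scx was tested, summed to 31.0 and 26.4 FPKM in WT skin and 25.5 and 18.0 FPKM in KO, with 2 of the 5 at 0 in KO replicate 2.

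Most of the proteoglycan members lie in clusters of related genes on the mm9 build. Dcn (chromosome 10, 96942134 to 96980797, plus strand, 8 exons) is followed 47.3 kb downstream by Lum (97028135 to 97035337, plus strand, 3 exons), and then by Kera and Epyc. On chromosome 1, Prelp (135806882 to 135817978, minus strand, 3 exons) lies 116 kb before Fmod (135934092 to 135944854, plus strand, 3 exons). On chromosome 13, Ecm2, Aspn, Omd and Ogn follow each other with gaps of 11.7, 15.2 and 15.5 kb. Aspn runs from 49639812 to 49662931 with 8 exons and Ogn from 49703440 to 49719869 with 7 exons, both on the plus strand. Bgn lies on chromosome X (70728940 to 70741275, plus strand, 8 exons), Eln on chromosome 5 (135178465 to 135223193, minus strand, 37 exons), Fbn1 on chromosome 2 (125126330 to 125332174, minus strand, 65 exons) and Fn1 on chromosome 1 (71632047 to 71699808, minus strand, 46 exons). Exons of Prelp, Fbn1 and Fn1 overlap Gm15851, Gm9913 and Apol7d, respectively, on the opposite strand. Strand use in the counting is not given in the sources used here.

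Promoter windows, the 250 bases before the RefSeq start, were read for 6 of the 10 members, Aspn, Bgn, Fbn1, Fmod, Ogn and Prelp. Windows of Dcn, Lum, Eln and Fn1 were not used here. The 6 windows came from RefSeq's table for GRCm38.p6, and each was placed on NCBIM37, the assembly of mm9, by a single exact match. The windows of Aspn and Ogn are printed because these neighbours on chromosome 13 differed in KO replicate 2, and those of Bgn and Fbn1 because their levels in KO replicate 1 were closest to the WT mean among the 6. Capitals mark matches to 4 motifs on either strand. For the TATA box the letters searched were TATAAA. The CCAAT box was searched by the letters of its name. For the GC box they were GGGCGG, and for an AP-1 site they were TGANTCA with any base at N. Sequences run from 5′ to 3′ on the strand of the gene.
Aspn (chr13:49639562-49639811, plus strand): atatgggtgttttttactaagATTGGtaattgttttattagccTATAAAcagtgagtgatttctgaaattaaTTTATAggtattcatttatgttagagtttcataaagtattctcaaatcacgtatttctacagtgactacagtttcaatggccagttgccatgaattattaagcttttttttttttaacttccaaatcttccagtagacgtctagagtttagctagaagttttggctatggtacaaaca
Ogn (chr13:49703134-49703383, plus strand): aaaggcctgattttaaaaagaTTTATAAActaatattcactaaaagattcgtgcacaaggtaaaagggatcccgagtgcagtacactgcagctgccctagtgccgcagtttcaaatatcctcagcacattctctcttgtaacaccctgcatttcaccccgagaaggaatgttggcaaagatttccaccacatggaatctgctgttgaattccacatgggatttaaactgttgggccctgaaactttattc
Bgn (chrX:70728690-70728939, plus strand): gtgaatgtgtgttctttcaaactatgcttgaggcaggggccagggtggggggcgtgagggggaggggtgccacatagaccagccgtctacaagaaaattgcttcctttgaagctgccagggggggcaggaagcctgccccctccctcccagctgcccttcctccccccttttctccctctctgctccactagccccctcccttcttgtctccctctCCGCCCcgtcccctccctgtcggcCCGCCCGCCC
Fbn1 (chr2:125332175-125332424, minus strand): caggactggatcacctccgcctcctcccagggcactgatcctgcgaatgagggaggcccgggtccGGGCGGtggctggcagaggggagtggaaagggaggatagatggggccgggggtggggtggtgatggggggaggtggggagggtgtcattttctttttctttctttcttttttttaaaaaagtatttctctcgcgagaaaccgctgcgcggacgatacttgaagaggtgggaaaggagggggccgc

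The 2 neighbours share A+T-rich windows, with a GC content of 30.0% for Aspn and 42.0% for Ogn against a median of 52.4% over 32851 promoters. Aspn held TATAAA at 207 and 178 bases and CCAAT at 229 bases before the start, and Ogn held TATAAA at 229 and 227 bases, where the matches overlap. TATAAA occurred in 12.4% of all promoters of this length and CCAAT in 33.8%. Bgn and Fbn1 had GC contents of 64.4% and 59.2%. Bgn held GGGCGG at 34, 10 and 6 bases before the start, the last pair overlapping, and Fbn1 held it at 185 bases, against 32.7% of all promoters with at least 1 match. Of the windows not printed, Prelp (GC content 55.6%) held CCAAT at 15 bases and Fmod (51.2%) held none of the 4 motifs. The AP-1 letters were in none of the 6 windows and in 6.75% of all promoters. An E-box (CANNTG), found in 66.2% of promoters, was present in 4 of the 6, at 97 bases in Aspn, at 162, 63 and 39 bases in Ogn, at 102 bases in Bgn and at 189 bases in Fmod. The RefSeq start lay 56 bases upstream of the table's gene start for Ogn and 261 bases upstream for Fmod.

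In WT skin 3 of the members were far above the rest. Bgn had 89.0 ± 2.39 FPKM, Fn1 88.2 ± 4.64 FPKM and Dcn 68.7 ± 40.6 FPKM (SD, n = 2 each), and neighbours in this order did not differ beyond their ranges. A gap without overlap followed, down to Lum at 15.6 ± 9.72 FPKM. Eln (10.1 FPKM), Prelp (9.04 FPKM), Ogn (7.17 FPKM), Fbn1 (6.13 FPKM) and Aspn (3.85 FPKM) overlapped their neighbours. Fmod, at 1.03 ± 0.00796 FPKM, was below all others without overlap. In KO skin Dcn led with 81.4 ± 101 FPKM, followed by Bgn with 49.0 ± 57.2 FPKM, and the ranges of all neighbours in the order overlapped. Fn1 held rank 2 of the 10 in each WT library and rank 5 in each KO library, while Aspn held rank 9, 9 and 8 and then rank 3 in KO replicate 2. All 10 members passed the filter of at least 1 FPKM in at least 2 libraries, Fmod through WT replicates 1 and 2 and KO replicate 1.

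**Figure D1:**
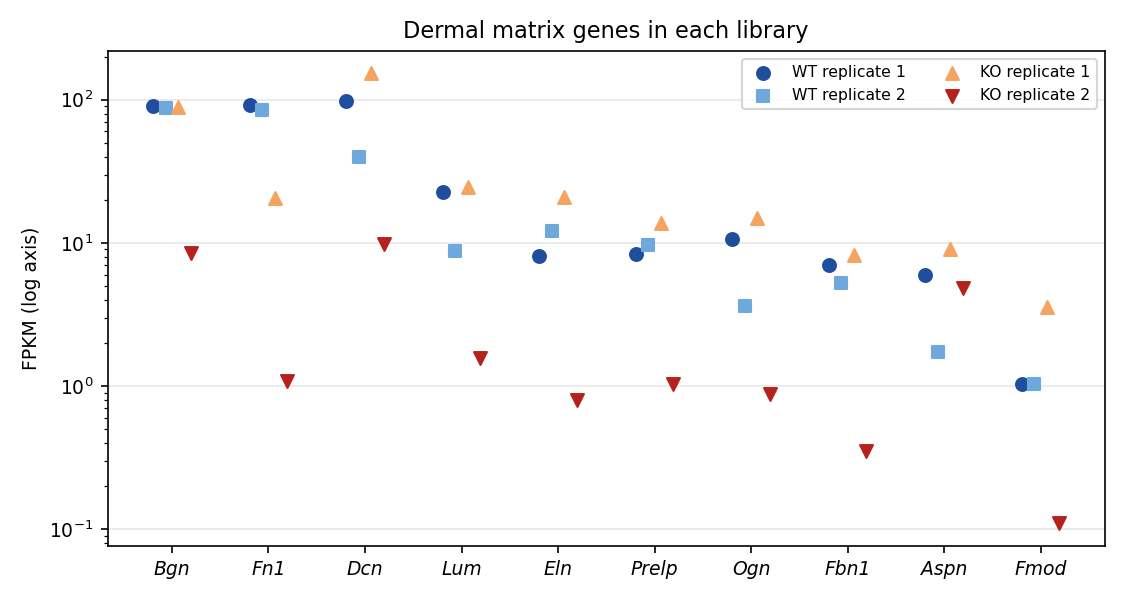
FPKM of the 10 matrix genes (log axis) in each of the 4 libraries, with genes ordered by their WT mean and 1 point per library. KO replicate 2 is the lowest point of 9 genes, and Fn1 is the gene with both KO points below both WT points.

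The WT libraries were not alike for every member. Dcn, Lum, Aspn and Ogn, which are genes of the clusters on chromosomes 10 and 13, were 2.44, 2.57, 3.45 and 2.96 times as high in WT replicate 1 as in WT replicate 2. On the log2(FPKM + 1) scale these 4 differed by 1.26 to 1.35, and WT replicate 1 lay more than 1 log2 unit above WT replicate 2 in 2.46% of the 13027 tested genes and differed from it by that much in either direction in 4.68%. For Bgn, Fmod, Fn1, Fbn1 and Prelp the ratio lay between 0.865 and 1.35, and Eln had the lowest, 0.673. The WT libraries were thus close for Bgn, Fmod and Fn1 and far apart for Dcn, Lum, Aspn and Ogn.

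Between genotypes, 0 of the 10 members and 0 of all tested genes (0%) passed an adjusted p under 0.05 with an absolute log2 fold change above 1 by limma. The study set the same limits but used DESeq2 on read counts, and it reported FN1 among the down-regulated genes. The counts given here are of limma on FPKM and are not those of the study's test. At an unadjusted p under 0.05 with a log2 fold change below -1, 1 member, Fn1, passed, against 4.14% of tested genes, and above 1 no member passed, against 6.16%. These shares were 539 and 802 genes, and with median-ratio scaling, which moved the median of all genes to -0.01, they were 700 and 614. Groups did not overlap with KO above WT in 0 members, against 35.3% of tested genes. The log2 fold change was below 0 in 8 of 10 members, against 41.4% of tested genes, and its median was -0.84 over the members and 0.11 over all tested genes. This count rested on 1 library: without KO replicate 2 it was 1 of 10 (39.0% of tested genes) with a median of 0.87, and without KO replicate 1 it was 9 of 10 (43.3%) with a median of -2.47. All fold changes here are of log2(FPKM + 1), which understates the change of low genes.

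The KO libraries went opposite ways for most members. KO replicate 2 was the lowest of the 4 libraries in 9 of 10 members, against 33.3% of tested genes, and KO replicate 1 the highest in 8 of 10, against 18.9%. Both held in 7 members (Dcn, Lum, Fmod, Prelp, Ogn, Eln and Fbn1), against 7.41% of tested genes. KO replicate 2 lay more than 1 log2 unit below the WT mean in 8 members, against 12.5%, and KO replicate 1 lay that far above it in 5 (Dcn, Aspn, Fmod, Ogn and Eln), against 5.79%. Both KO libraries lay more than 1 log2 unit below the WT mean in Fn1 only, against 2.59% of tested genes. KO replicate 1 was above the WT mean in 9 members, against 61.0%, and more than 1 log2 unit below it in 1, Fn1, against 2.83%. When KO replicate 2 alone was set against the WT libraries with limma, 8 members were lower at an adjusted p under 0.05 with a log2 fold change below -1, against 9.20% of tested genes, and 0 were higher by the same limits, against 6.59%, in a fit that assumes the lone library to vary as the WT libraries do. With KO replicate 1 alone, 0 members passed in either direction, against 0.115% of tested genes lower and 0.215% higher.

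**Figure D2:**
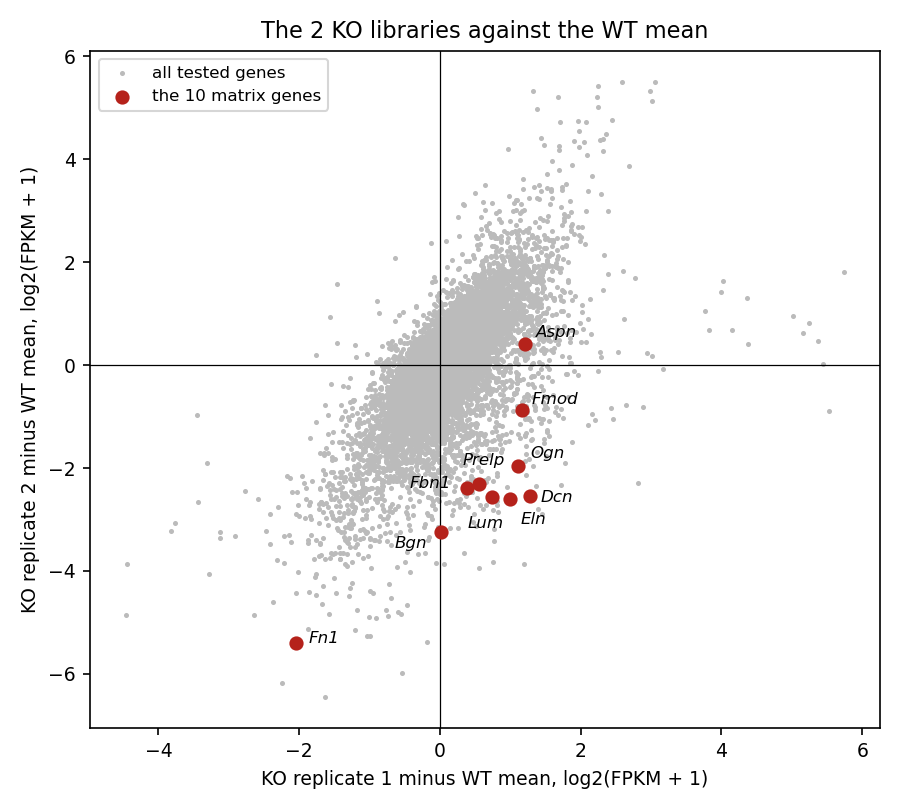
Difference of KO replicate 1 (horizontal axis) and KO replicate 2 (vertical axis) from the WT mean in log2(FPKM + 1), with the 10 matrix genes in red and the other tested genes in grey. Fn1, at -2.05 and -5.41, is the red point on the lower left, Aspn, at 1.21 and 0.42, is the one on the upper right, and the other 8 lie between 0.01 and 1.28 on the horizontal axis and between -3.24 and -0.87 on the vertical axis.

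Decorin, the product of Dcn, carries a single dermatan or chondroitin sulfate chain, binds collagen fibrils and sequesters TGF-beta. Dcn had 97.5 and 40.0 FPKM in WT skin and, in KO skin, 153 FPKM in replicate 1 and 9.89 FPKM in replicate 2. The KO values thus enclosed the WT values, with KO replicate 1 at 2.23 times and KO replicate 2 at a level 6.95 times below the WT mean. The log2 fold change was -0.63 (standard error, SE, 1.28, 95% interval -3.90 to 2.63, adjusted p = 0.800 by limma). Without KO replicate 2 it was 1.28, and without KO replicate 1 it was -2.54 (adjusted p = 0.0148 by limma).

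Biglycan, encoded by Bgn, is the closest relative of decorin and also acts as a danger signal on macrophages when it is released from the matrix. Its 4 values were 90.7 and 87.3 FPKM in WT skin and 89.4 and 8.55 FPKM in KO. Bgn therefore stood at the same level in 3 libraries and 10.4 times below the WT mean in KO replicate 2. The log2 fold change of -1.62 (SE 1.04, 95% interval -4.27 to 1.04, adjusted p = 0.436 by limma) became 0.01 without KO replicate 2. KO replicate 2 differed from the WT mean by -3.24 log2 units (adjusted p = 0.00136 by limma for this library alone), a difference at the 0.913 percentile of tested genes.

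Asporin, a relative of decorin that carries no glycosaminoglycan chain and also binds collagen and TGF-beta, was the exception among the members. Aspn had 5.96 and 1.73 FPKM in WT skin and 9.09 and 4.85 FPKM in KO. KO replicate 2 thus lay within the WT range, although 9 of the members had their lowest value there. An estimated 145 fragments stood behind that value and 58.0 behind that of WT replicate 2, the lowest. For Aspn the log2 fold change came to 0.82 (SE 0.54, 95% interval -0.56 to 2.20, adjusted p = 0.445 by limma), and it stayed above 0 without each library, from 0.14 to 1.49.

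Lumican, encoded by Lum, is a keratan sulfate proteoglycan that regulates fibril spacing in skin and cornea. Lum had 22.5 and 8.75 FPKM in WT skin and 24.4 and 1.57 FPKM in KO. Its neighbour Dcn had the most similar profile among the members: after centring each gene, their log2 values differed by a root mean square of 0.23 over the 4 libraries. The log2 ratio of Lum to Dcn was -2.12 and -2.19 in WT and -2.65 and -2.65 in KO, so the groups did not overlap, and the exact permutation test gave p = 0.333, the smallest it can give for 2 against 2. The fold change of Lum itself was -0.91 (SE 1.13, adjusted p = 0.672 by limma), and 0.74 without KO replicate 2.

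Fibromodulin and PRELP are relatives of lumican, and both bind collagen. Fmod was the least expressed member, with 1.04 and 1.03 FPKM in WT skin and 3.54 and 0.110 FPKM in KO. The lowest value rests on an estimated 4.37 fragments, close to the 3 fragments of the floor, so its distance from WT is uncertain. KO replicate 1 was 3.43 times the WT mean, the highest ratio of the 10 members. The log2 fold change of 0.14 (SE 0.68, adjusted p = 0.921 by limma) turned to -0.87 without KO replicate 1 and to -0.37 with a pseudocount of 0.1 FPKM. Prelp, whose product also binds basement membrane proteoglycans, had 8.38 and 9.69 FPKM in WT skin and 13.7 and 1.03 FPKM in KO. Its log2 fold change was -0.87 (SE 0.93, adjusted p = 0.615 by limma), or 0.56 without KO replicate 2. Fmod and Prelp shared the order of the libraries, with KO replicate 1 highest and KO replicate 2 lowest.

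Osteoglycin or mimecan, the product of Ogn, is a leucine-rich proteoglycan that takes part in fibril formation. Ogn had 10.7 and 3.62 FPKM in WT skin and 14.8 and 0.877 FPKM in KO. KO replicate 1 was again the highest and KO replicate 2 the lowest. The log2 ratio of Ogn to Aspn, its cluster neighbour, was 0.85 and 1.07 in WT, 0.71 in KO replicate 1 and -2.47 in KO replicate 2, so the pair kept their ratio in 3 libraries and not in the fourth. Between genotypes Ogn differed by a log2 fold change of -0.43 (SE 1.08, adjusted p = 0.839 by limma), and it was 0.24 without WT replicate 1 and 1.11 without KO replicate 2.

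Eln encodes tropoelastin, the soluble precursor that is cross-linked into elastic fibres, and Fbn1 encodes fibrillin-1, the main component of the microfibrils that carry it. Eln had 8.14 and 12.1 FPKM in WT skin and 20.9 and 0.796 FPKM in KO. Fbn1 had 7.04 and 5.21 FPKM in WT skin and 8.25 and 0.349 FPKM in KO. In both genes the KO libraries enclosed the WT libraries, and KO replicate 1 exceeded KO replicate 2 by 26.3 times for Eln and 23.7 times for Fbn1. As log2 fold changes this gave -0.80 (SE 1.16, adjusted p = 0.717 by limma) for Eln and -1.0 (SE 0.91, adjusted p = 0.559 by limma) for Fbn1. Without KO replicate 2 they were 1.00 and 0.39, and without KO replicate 1 they were -2.61 and -2.39. The log2 ratio of Eln to Fbn1 was 0.21 and 1.21 in WT and 1.34 and 1.19 in KO, so it varied more between the WT libraries than between the KO libraries.

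Fn1 was the member with the largest difference between genotypes. Its levels of 91.5 and 84.9 FPKM in WT skin and 20.6 and 1.09 FPKM in KO put it at the 93.6 and 93.2 percentile of tested genes in WT, at the 72.7 percentile in KO replicate 1 and at the 8.23 percentile in KO replicate 2. The groups did not overlap, with KO below WT, which was the case in 20.5% of tested genes, and no other member showed it. An estimated 13255 and 10099 fragments stood behind the WT values and 2349 and 116 behind the KO values. The log2 fold change was -3.73 (SE 1.08, 95% interval -6.48 to -0.98), with an adjusted p of 0.248 by limma. It kept its direction in each KO library, at -2.05 in KO replicate 1, which is the 0.230 percentile of tested genes, and at -5.41 in KO replicate 2, which is the 0.0307 percentile. The adjusted p was 0.0589 with KO replicate 1 alone and 0.000729 with KO replicate 2 alone, both by limma. The KO libraries thus went the same way, but they differed from each other by 18.8 times.

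**Figure D3:**
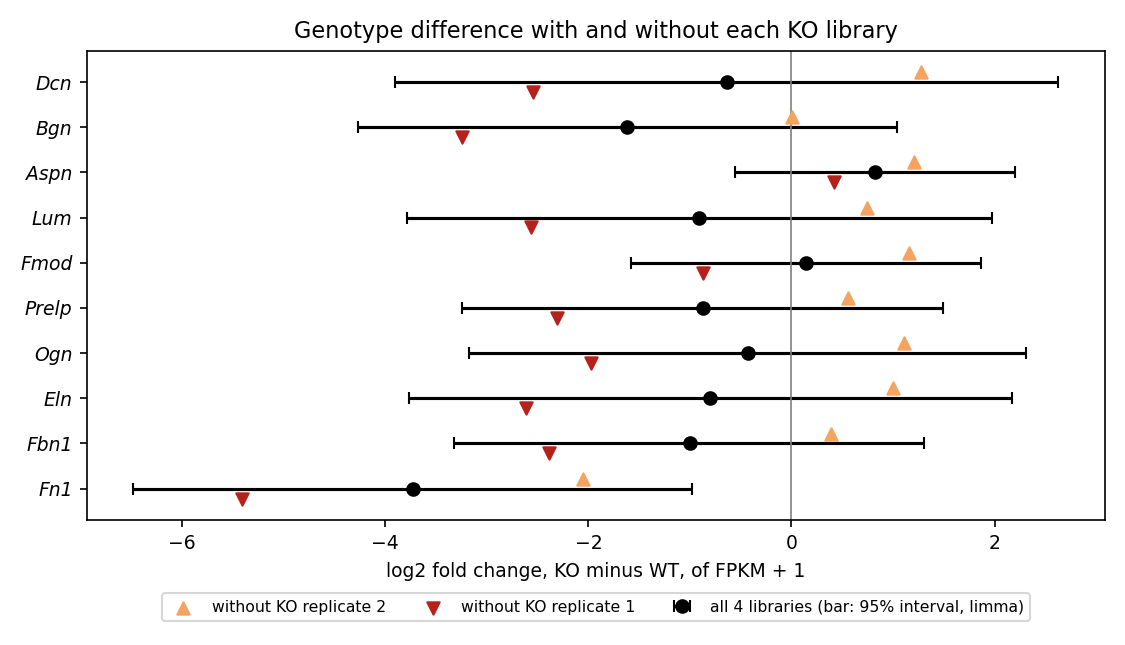
Log2 fold change of FPKM + 1, KO minus WT, for each of the 10 matrix genes, with black points and bars for the estimate and 95% interval of limma over all 4 libraries and coloured triangles for the estimate without KO replicate 1 or 2. The triangles lie on both sides of 0 in 7 genes and close to 0 for Bgn without KO replicate 2, whereas Fn1 lies below 0 throughout, from -5.41 to -2.05, and Aspn above 0.

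Fn1 also parted from the other matrix genes within each library. Its log2 level minus the mean of the other 9 members was 2.70 and 3.14 in WT and 0.04 and -0.49 in KO, a difference of -3.14. Leaving out KO replicate 2 gave -2.87 and leaving out KO replicate 1 gave -3.41, and the exact permutation test gave p = 0.333, the smallest that 2 against 2 libraries allow. Against single genes the same order was seen. The log2 ratio of Fn1 to Bgn was 0.01 and -0.04 in WT and -2.12 and -2.97 in KO, and that of Fn1 to the type I collagen gene Col1a1 was 1.46 and 1.23 in WT and -1.54 and -1.10 in KO. The ratio to Cd68, a lysosomal protein abundant in macrophages, differed less, with log2 values of -0.13 and -0.51 in WT and -0.90 and -2.84 in KO. The sum of the macrophage markers was lower in both KO libraries, as given above, and its part in the level of Fn1 was not tested.

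The members were also set against the 8 fibroblast markers, by subtracting the mean log2(FPKM + 1) of these markers in each library. On this scale Fn1 was at 3.10 and 3.29 in WT and at 0.35 and -0.76 in KO, a difference of -3.40. Bgn was at 3.09 and 3.33 in WT and at 2.42 and 1.43 in KO, a difference of -1.28. Fbn1 differed by -0.67. The groups did not overlap for Fn1, Bgn and Fbn1, each with p = 0.333 in the exact permutation test, the smallest possible. On the plain scale KO lay below WT without overlap in 20.5% of tested genes and above it in 35.3%. The share of all tested genes on the scale relative to the markers was not computed. The count of members without overlap is therefore not read as a result about them. With KO replicate 2 left out these 3 differences were -2.84 for Fn1, -0.79 for Bgn and -0.41 for Fbn1, and with KO replicate 1 left out they were -3.95, -1.78 and -0.93. With no pseudocount, a scale chosen after seeing the data, their groups did not overlap either, and the differences were -3.70, -1.17 and -1.32. Fmod, the member with the lowest level, had no direction that held on both scales. Its difference was 0.48 with the pseudocount of 1, where its groups did not overlap, and -0.21 without one, where they did, at -3.07 and -2.70 in WT and -2.09 and -4.11 in KO. For the other 6 members the groups overlapped with the pseudocount of 1, and of these those of Prelp did not overlap without it, with a difference of -0.75. Dcn was at 3.19 in both WT replicate 1 and KO replicate 1 and differed by -0.30, Lum by -0.57, Prelp by -0.54, Eln by -0.47 and Ogn by -0.10. With KO replicate 2 left out, the sign turned for Dcn (0.48), Eln (0.21) and Ogn (0.31). Lum then differed by -0.05, and Prelp kept its direction at -0.24. When KO replicate 1 was left out, these 5 differences lay between -1.15 (Eln) and -0.51 (Ogn). Aspn stood out upward in KO replicate 2, at 0.72 against -0.63 and -1.69 in WT and -0.75 in KO replicate 1, a difference of 1.15 that was 0.42 with KO replicate 2 left out and 1.88 with KO replicate 1 left out. In KO replicate 2, Dcn (1.62), Lum (-0.46), Prelp (-0.81) and Eln (-0.98) lay below their lower WT values of 2.22, 0.15, -0.20 and -0.24.

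**Figure D4:**
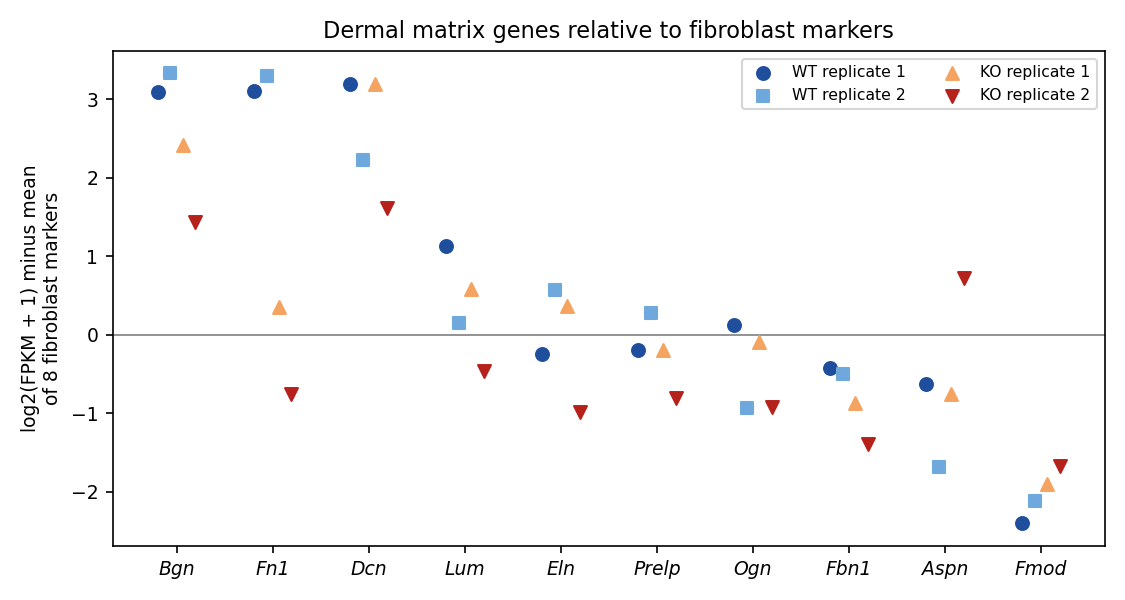
Log2(FPKM + 1) of each matrix gene minus the mean of the 8 fibroblast markers in the same library, with genes ordered by their WT mean FPKM and 1 point per library. Both KO points lie below both WT points for Bgn, Fn1 and Fbn1, the position of Fmod depends on the pseudocount, and the gap is widest for Fn1, at 0.35 and -0.76 against 3.10 and 3.29.

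The proteins that build elastic fibres around Eln and Fbn1 were followed through 17 genes of fibulins, EMILINs, microfibril proteins, latent TGF-beta binding proteins and lysyl oxidases, of which 16 were tested. In this list 12 were lower and 4 higher, where 41.4% of all tested genes were lower, and 0 passed the adjusted threshold. The median log2 fold change was -0.47 against 0.11 over all tested genes. KO replicate 2 was the lowest library in 15 of the 16, against 33.3% of tested genes. The median was 0.35 without that library and -1.53 without KO replicate 1. Emilin2, an elastic fibre-associated glycoprotein, had the largest change, at 13.4 and 22.3 FPKM in WT skin and 9.91 and 0.724 FPKM in KO (log2 fold change -2.08, adjusted p = 0.311 by limma). That value was -0.75 when KO replicate 2 was left out and -3.41 when KO replicate 1 was. Both KO libraries of Emilin2 lay below both WT libraries, as in 20.5% of all tested genes, while KO lay above WT without overlap in 35.3%. Mfap5, a microfibril-associated protein, had 27.1 and 16.2 FPKM in WT skin and 27.0 and 0.744 FPKM in KO, and so was low in KO replicate 2 only. Fbln2, a fibulin, was also low in KO replicate 2 only, with 18.5 and 24.5 FPKM in WT skin and 27.4 and 2.44 FPKM in KO. The most expressed gene of the list, Ltbp3, had 21.1 and 46.8 FPKM in WT skin and 27.6 and 18.2 FPKM in KO, and Ltbp4 had 14.7 and 17.0 FPKM against 25.9 and 11.8 FPKM. These binding proteins, which hold latent TGF-beta in the matrix, were less low in KO replicate 2 than the fibre proteins named before them.

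Collagen genes whose fibrils carry the proteoglycans behaved as most members did. Of 8 fibrillar and microfibrillar collagen genes 8 had a log2 fold change below 0, against 41.4% of tested genes. The adjusted threshold was passed by 0 of them, and the median was -0.99. It was 0.57 with KO replicate 2 left out and -2.41 with KO replicate 1 left out. KO replicate 2 was the lowest library in 8 of 8, against 33.3% of tested genes. Col1a1 had 33.2 and 36.2 FPKM in WT skin and 59.8 and 2.34 FPKM in KO. Col3a1, the most expressed of them, had 72.4 and 60.9 FPKM in WT skin and 114 and 6.45 FPKM in KO. Neither gene was lower than WT in KO replicate 1. The ratio of Dcn to Col1a1 varied between the WT libraries, with log2 values of 1.56 and 0.14, and was 1.36 and 2.08 in KO, so Dcn was not low relative to this collagen in KO skin.

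The receptors through which cells bind and assemble fibronectin were followed through 7 genes, 6 of them tested. In this list 4 were lower and 2 higher, 0 passed the adjusted threshold, and the median log2 fold change was -0.31. It came to 0.02 for KO replicate 1 alone against WT and to -0.65 for KO replicate 2 alone. Itga5, the alpha chain of the classical fibronectin receptor, had 14.9 and 16.0 FPKM in WT skin and 8.00 and 2.58 FPKM in KO (log2 fold change -1.53, adjusted p = 0.254 by limma), and its difference from the WT mean was -0.87 in KO replicate 1 and -2.20 in KO replicate 2. Itga4, an integrin chain of leukocytes that binds an alternatively spliced segment of fibronectin, had 2.82 and 1.60 FPKM in WT skin and 0.741 and 0.358 FPKM in KO. It passed the filter on low values only through the WT libraries, so a lower value in KO was built into its selection, and its place among the 4 lower genes and in the median carries no weight. In Itga5, which passed the filter in every library, each KO value was under each WT value, as in 20.5% of tested genes. Itgb1, the beta chain that pairs with either, had 62.8 and 52.4 FPKM in WT skin and 49.0 and 36.5 FPKM in KO. Sdc4, a heparan sulfate proteoglycan that acts with integrins in fibronectin adhesion, went the other way, with 43.4 and 35.8 FPKM in WT skin and 75.3 and 68.6 FPKM in KO (log2 fold change 0.85, adjusted p = 0.248 by limma). Itgav, another gene of the list, was also higher, with 4.88 and 2.86 FPKM in WT skin and 5.92 and 8.33 FPKM in KO. Over all tested genes, KO lay above WT without overlap in 35.3%. The log2 ratio of Fn1 to Itga5 was 2.62 and 2.40 in WT and 1.36 and -1.24 in KO.

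Other leucine-rich proteoglycans were mostly near the floor. Of 10 such genes 3 were tested, 1 lower and 2 higher with 0 past the adjusted threshold, and their median log2 fold change was 0.01 (0.26 with KO replicate 2 left out and -0.52 with KO replicate 1 left out). Podn had 4.45 and 5.38 FPKM in WT skin and 6.07 and 1.55 FPKM in KO, and Tsku, a secreted inhibitor of several growth factors, had 5.08 and 5.76 FPKM in WT skin and 6.00 and 10.2 FPKM in KO. Podn thus followed the order of most members and Tsku was highest in KO replicate 2. The cluster neighbours of the members were low: Ecm2 had 1.51 and 0.974 FPKM in WT skin and 2.22 and 0.557 FPKM in KO, and Omd, between Aspn and Ogn, had 0.559 and 0.0423 FPKM in WT skin and 1.04 FPKM in KO replicate 1 and was listed at 0 in KO replicate 2.

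**Figure D5:**
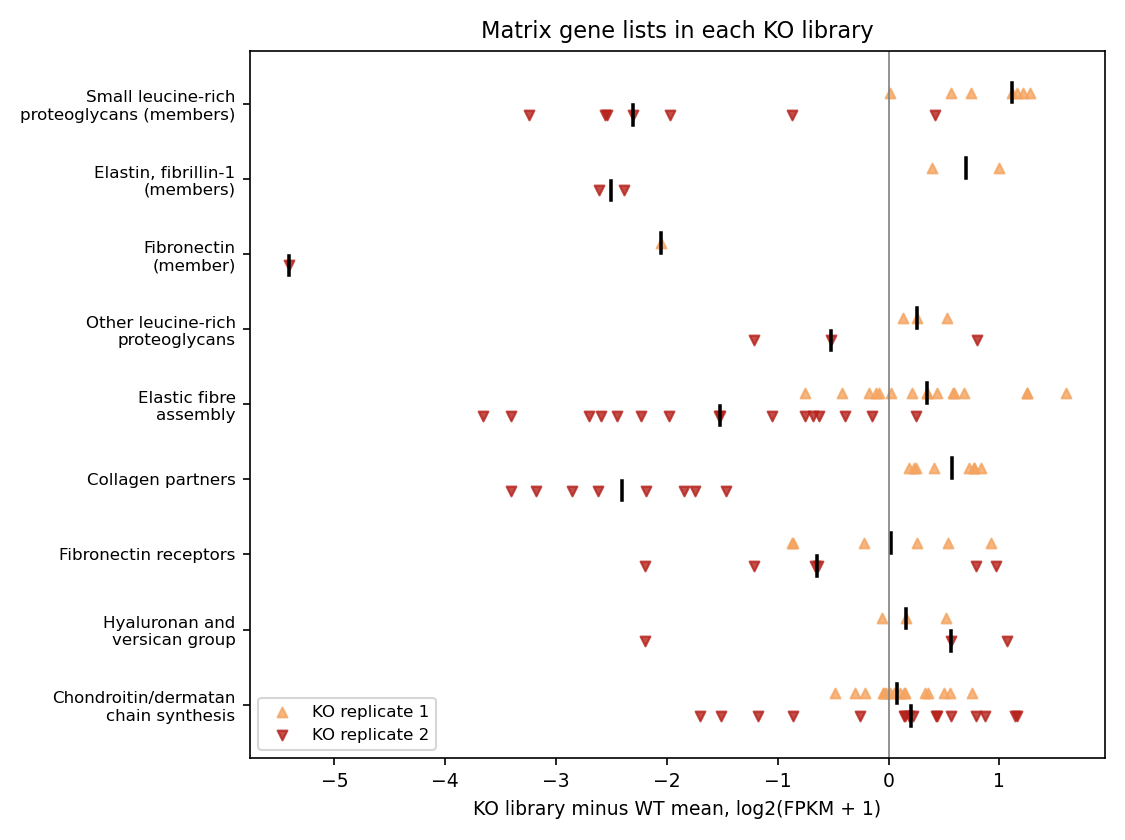
Difference of each KO library from the WT mean in log2(FPKM + 1) for the tested genes of each matrix list, with 1 triangle per gene and a black tick at the median of each list. KO replicate 2 lies to the left of KO replicate 1 in the elastic fibre list (medians -1.53 and 0.35) and the collagen list (medians -2.41 and 0.57), as it does for the members, and the chain synthesis list is centred near 0 in both (medians 0.20 and 0.07).

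Across all tested genes the profiles most like the mean of the 10 members belonged to genes of several cell types. Among the nearest, by the root mean square distance of centred log2 values over the 4 libraries, were Mmp3 (0.13), a matrix metalloproteinase, Mcpt4 (0.13), a mast cell protease, Ly6c1 (0.14), found on endothelial and other cells, and Cygb (0.14), a globin of fibroblasts. The median distance of all tested genes was 1.18. Mmp3, for example, had 11.4 and 7.08 FPKM in WT skin and 16.5 and 1.25 FPKM in KO. Among the members Fbn1 was nearest to their mean, at 0.08, and Aspn (1.18) and Fn1 (1.43) were farthest. With 4 points per profile, 1 low library fixes most of the distance.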

How the data were processed

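Per the labels and the study's methods, the authors aligned paired-end reads to mm9 with HISAT2 (version 2.0.1) and counted reads per gene, and the submitters' processing notes also name StringTie (version 2.0.6). Although named as counts, the deposited table holds FPKM values, since 99.993% of values above 0 were not whole; the program that made them is not given in the sources used here. No count test was therefore run. Of 24441 rows, 26 gene names had been turned into dates. Values were transformed to log2(FPKM + 1), and a gene was tested where 2 or more libraries held 1 FPKM or more, which left 13027 genes. Fits were made by limma (version 3.58.1, under R version 4.3.3) on genotype alone, using empirical Bayes moderation, a trend and Benjamini-Hochberg adjustment over all tested genes. The fit was tested on simulated data. Depth was estimated from the values of 2710 genes with a single transcript and is approximate; its floor covers counting error only. Ratios between genes were compared with an exact two-sided permutation test over libraries.

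The members and gene lists were chosen with earlier results of these data known. Named genes were the 10 members, at most the 4 highest and the 4 with the largest absolute log2 fold change of each list, cluster neighbours, and the 5 genes nearest in profile, of which 1 is not reported here. Pdgfra was named outside this rule, after its values were seen, as a defining fibroblast marker. Same-numbered libraries were checked for pairing (correlation of deviations -0.20 over 13027 genes) and treated as unpaired. Alternatives were other pseudocounts, filters, scalings, a fit without a trend, a replicate block and leaving out each library, with levels relative to other genes also taken with no pseudocount, added after seeing the data. Python (version 3.11.15) and pandas (version 2.3.3) were used for tables.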

Additional observations from a re-analysis of the deposited data

How the results depend on the processing

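The library left out decided most results. Without each library in turn, log2 fold changes ran from -2.54 to 1.28 for Dcn, -3.24 to 0.01 for Bgn, -2.56 to 0.74 for Lum, -0.87 to 1.16 for Fmod, -2.31 to 0.56 for Prelp, -1.97 to 1.11 for Ogn, -2.61 to 1.00 for Eln, -2.39 to 0.39 for Fbn1 and -5.41 to -2.05 for Fn1. The negative end was without KO replicate 1, and the other end, with a changed sign for Dcn, Bgn, Lum, Prelp, Ogn, Eln and Fbn1, was without KO replicate 2. Ogn was also 0.24 without WT replicate 1. Without KO replicate 1 an adjusted p under 0.05 was reached by 8 members, in a fit that assumes a lone library to vary like the WT group. The members lower in KO ranged from 1 to 9, their median from -2.47 to 0.87, their median relative to fibroblast markers from -1.01 to 0.08, the genes called from 0 to 2058 (43 without KO replicate 2), and the genes lower at an unadjusted p under 0.05 with a log2 fold change below -1 from 242 (without WT replicate 2) to 1605 (without KO replicate 1). That last count was 539 with all libraries and 349 at a mean of at least 5 FPKM, where Fmod was not tested. Fmod was -0.37 with a pseudocount of 0.1, and the cause of these moves was not tested. Scaling moved the split of unadjusted calls from 539 lower and 802 higher to 700 and 614 with median-ratio factors, and the median of all genes from 0.11 to -0.01. The replicate block, for which the numbers gave no pairing, left 0 genes called and moved the unadjusted calls to 686 lower and 907 higher, with Fn1 at -3.73 and a smallest adjusted p of 0.126 among the members by limma. A crossed block, added after seeing the data, called 0 genes and gave 681 lower and 819 higher. The members among the unadjusted calls numbered 1 with all libraries and 2 with the replicate block. Leaving out a library could also move that count. With no pseudocount the median relative to fibroblast markers was -0.71 against -0.51. In the other alternatives run, fold changes of the members kept their direction. Depth limits Fmod most, with an estimated 4.37 fragments in KO replicate 2.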

Other observations

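Genes that make the chondroitin and dermatan sulfate chains of the proteoglycans were centred near 0 in both KO libraries. Of 19 such genes 16 were tested, 5 lower and 11 higher, with 0 past the adjusted threshold by limma, and the median log2 fold change was 0.21, with 0.07 when KO replicate 2 was left out and 0.20 when KO replicate 1 was. B3gat3, an enzyme of the linker that joins the chain to the core protein, was the most expressed, with 32.7 and 41.2 FPKM in WT skin and 36.1 and 30.4 FPKM in KO. Dsel, an epimerase-like gene of dermatan sulfate synthesis, had 1.25 and 0.593 FPKM in WT skin and 2.19 and 3.23 FPKM in KO (log2 fold change 0.96, adjusted p = 0.258 by limma). Chst12, a sulfotransferase, had 9.62 and 20.2 FPKM in WT skin and 11.2 and 3.60 FPKM in KO, and so was lowest in KO replicate 2. KO replicate 2 was the lowest library in 5 of the 16, close to its share of 33.3% over all tested genes.

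Hyaluronan genes and the large proteoglycans that bind it gave few tested genes, 3 of 8, with 1 lower and 2 higher, 0 past the adjusted threshold by limma and a median log2 fold change of 0.54 (0.16 without KO replicate 2 and 0.56 without KO replicate 1). Vcan, the large dermal proteoglycan versican, had 6.30 and 5.0 FPKM in WT skin and 5.35 and 0.438 FPKM in KO, and so was low in KO replicate 2 only. Cd44, the main hyaluronan receptor, had 44.8 and 30.3 FPKM in WT skin and 41.3 and 78.6 FPKM in KO, and was highest in KO replicate 2. Has3, a hyaluronan synthase of epidermal cells, had 1.00 and 0.640 FPKM in WT skin and 1.60 and 1.67 FPKM in KO. Its value in WT replicate 1 was just under 1 FPKM, so it passed the filter only through the KO libraries. A higher value in KO was thus built into its selection. Its place among the 2 higher genes carries no weight, nor do the medians of 0.54 and 0.56, which are its own values.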
